A study of Homo sapiens with 60 samples.

Results

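The genes described are 9 antioxidant genes that the transcription factor NRF2 is known to drive: SLC7A11, GCLC, GCLM, GSR, TXNRD1, SRXN1, NQO1, ME1 and OSGIN1. They were taken by Ensembl identifier from a table of 60675 identifiers, and all 9 were among the 17792 genes with enough counts to test. They were followed in SW1783, a human astrocytoma line grown in L-15 medium, collected 24 h after vehicle (labelled 0.1% DMSO), 10 µM wortmannin (an inhibitor of phosphoinositide 3-kinases) or a water extract of 1 of 6 herbs. The herbs were Liriopis seu Ophiopogonis Tuber, Schisandrae Fructus, Longan Arillus, Zizyphi Semen, Polygalae Radix and Aucklandiae Radix. Each extract was given at 20, 100 and 500 µg/mL (low, medium and high), except Polygalae Radix at 10, 50 and 250 µg/mL. There were 3 libraries in each of the 20 groups, 60 in all. No label says that those of a group came from separate cultures, so a p-value here reflects how much these libraries vary, which may be technical. Per the series text, the high dose was lowered to the concentration giving 20% inhibition where that lay below 500 µg/mL.

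NRF2, the product of NFE2L2, is held in the cytoplasm and sent for degradation by KEAP1. Oxidants and electrophilic compounds modify KEAP1, NRF2 then accumulates, and with a small MAF partner it binds antioxidant response elements near genes of glutathione and thioredoxin metabolism. In astrocytes this programme is known for supplying glutathione precursors to neurons, and in many gliomas the cystine transporter SLC7A11 is abundant.

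Promoter sequences are shown because the 9 genes are usually grouped by this element. RefSeq promoters (GRCh38.p14, 250 bases before to 50 after a gene's start) were matched for 7 of the 9 genes, and TXNRD1 has 2. The core of the element was searched on both strands as TGACNNNGC and as TGAGNNNGC. The first occurred in promoters of 3 of the 7 genes and in 13.3% of all 35116 promoters, the second in 4 of the 7 and in 18.3%, and either one in 5 of the 7 and in 29.1%. In the following lines each window is written 5′ to 3′ on the strand that carries the match, with the match in capitals. For each gene 1 window is shown; GCLM and ME1 have 1 further match of these forms and TXNRD1 has 3.
GCLM, chr1:93909446-93909474, strand opposite to the gene: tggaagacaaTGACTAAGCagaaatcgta
TXNRD1, chr12:104286920-104286948, strand opposite to the gene: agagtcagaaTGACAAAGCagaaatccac
ME1, chr6:83431170-83431198, strand of the gene: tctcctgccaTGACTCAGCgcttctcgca
OSGIN1, chr16:83953131-83953159, strand opposite to the gene: ttcataagcgTGAGTCAGCaggggcccgt
NQO1, chr16:69726661-69726689, strand opposite to the gene: cggaggatgcTGAGGCTGCagctccagga
Neither form was in the windows of GCLC and SRXN1, which says only that these letters are not in those 300 bases. GCGTG, the core bound by the aryl hydrocarbon receptor AHR, was in promoters of 7 of the 7 genes and in 36.5% of all; in OSGIN1 it overlaps the match shown. TGATGNAA, a form of the element bound by ATF4, was in 0 of the 7 and in 3.62% of all. These matches are descriptions of sequence and not of binding.

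Total counts per library ran from 9.34 to 35.35 M (M, mega, as in megabase) with a median of 25.71 M, and the lowest count of any of the 9 genes in any library was 112 (ME1). Liriopis_high replicate 1 stood apart from its group, with a mean correlation of 0.945 with the other members, and counts of calls that move by over 1.5 times without it are given both ways. Library names put the vehicle in a set apart from all others, while the doses of a herb share 1 set. Set and treatment therefore cannot be told apart in comparisons with vehicle. The same holds between herbs of different sets, such as the levels of Schisandrae and Aucklandiae libraries. Of 10 astrocyte markers, GFAP, S100B, AQP4, ALDH1L1 and NDRG2 had too few counts to test, at 0.148 CPM or less in vehicle, while GJA1 (203 CPM) and SOX9 (81.1 CPM) were present.

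In vehicle, NQO1 had the highest level per length, 48.5 ± 0.602 CPM per kb (SD, n = 3), the share of counts scaled to a fixed total and divided by exon length. TXNRD1 followed at 41.7 ± 0.178 and SRXN1 at 32.8 ± 1.08 CPM per kb. GSR (17.7 ± 0.686), GCLM (13.6 ± 0.419) and SLC7A11 (13.2 ± 1.38) were intermediate, and the last pair did not differ beyond their SD. OSGIN1 (4.70 ± 0.416), GCLC (3.71 ± 0.0711) and ME1 (3.56 ± 0.282) were lowest, and the levels of GCLC and ME1 lay within the SD of ME1. In Polygalae_high the order changed: TXNRD1 reached 148 and SRXN1 117 CPM per kb, above NQO1 at 52.9. CPM elsewhere in the text are scaled by TMM, a factor per library that removes composition differences, and are not divided by length. NQO1 counts were never whole numbers and 80% of SLC7A11 counts were not whole, because reads shared with other genes were split by the counting. NQO1 and SLC7A11 also overlap antisense transcripts in their exons, and SRXN1 (2292 bases), OSGIN1 (481 bases) and GCLC (529 bases) overlap exons of other genes on the same strand. For SRXN1, OSGIN1 and GCLC 0% of counts were not whole, so no split reads were seen for them. Values of NQO1 and SLC7A11 carry the uncertainty of split reads, and the effect of the overlaps on these 5 genes was not tested.

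**Figure D1:**
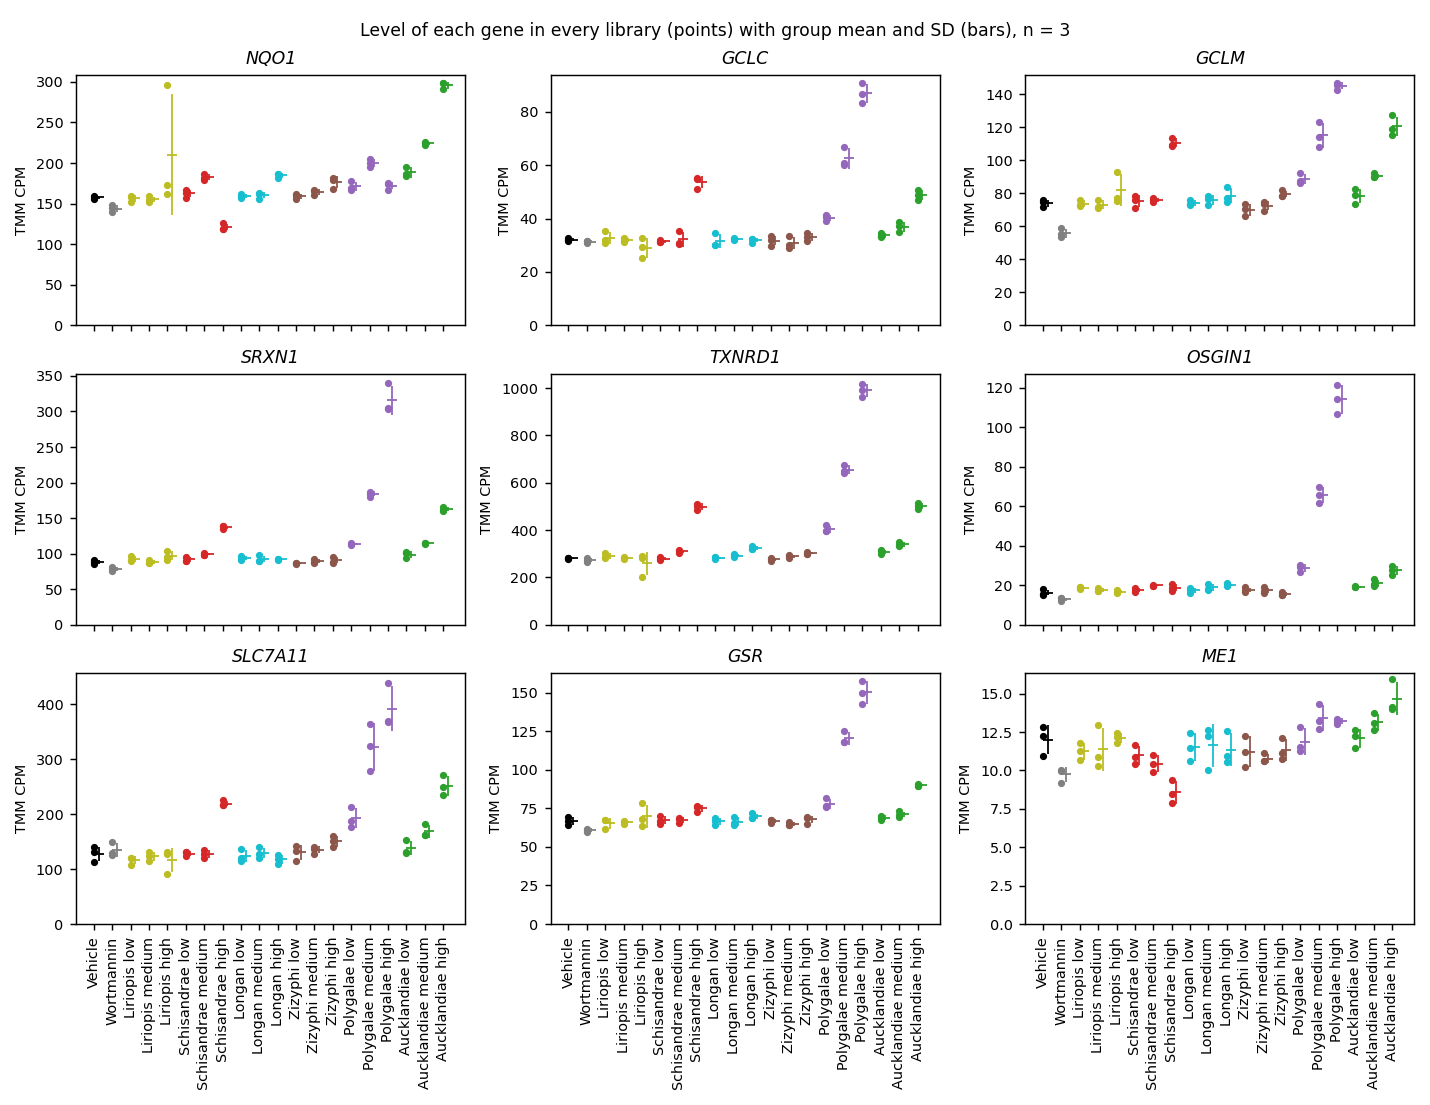
Level of each of the 9 genes in TMM-scaled CPM (vertical axes, from 0) in every library (points) of the 20 groups (horizontal axis), with group mean and SD (bars, n = 3). For 7 genes the highest group is Polygalae_high, while NQO1 and ME1 are highest in Aucklandiae_high and lowest in Schisandrae_high. For NQO1, 1 library of Liriopis_high stands above the others of its group.

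3 extracts moved most of the 9 genes at the high dose, each with its own pattern. Polygalae_high raised 7 of the 9 genes, led by OSGIN1 (7.03-fold), SRXN1 (3.57-fold) and TXNRD1 (3.54-fold), and left NQO1 and ME1 without a call. Aucklandiae_high raised all 9 by 1.22- to 1.97-fold. Schisandrae_high raised 7 and lowered NQO1 (log2 -0.38) and ME1 (log2 -0.49). A call here is an adjusted p under 0.05 in edgeR's quasi-likelihood test over all tested genes. Among all tested genes, 23.1% were called higher and 22.9% lower in Polygalae_high, 6.54% and 6.69% in Aucklandiae_high, and 25.3% and 25.6% in Schisandrae_high. The median log2 fold change of the 9 genes was 1.44, 0.76 and 0.58 in these groups, beside medians over all genes of 0.02, -0.0027 and 0.

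At lower doses, Polygalae_low raised 7 of the 9 genes, beside 3.01% of all genes called higher and 3.46% lower. Polygalae_medium raised 8 (15.2% and 14.9%). Aucklandiae_medium raised 5 (0.214% and 0.242%), a number that was 3 without vehicle replicate 2 or vehicle replicate 3, beside 45 and 47 of all genes called. Longan_high raised 1 (0.298% and 0.545%) and Liriopis_high raised 3 (18.7% and 15.2%). Wortmannin raised 0 and lowered 4 (5.45% and 6.52%), and 0 were higher under it at an unadjusted p under 0.05 or by DESeq2. Of all 17792 genes, 4197 passed that unadjusted p in either direction.

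In the other 10 groups edgeR called 0 of the 9. Of all genes, 0.461% were called higher and 0.562% lower in Schisandrae_medium and 0.247% and 0.36% in Zizyphi_high. In Zizyphi_medium the shares were 0.00562% and 0.0337%, in Longan_medium 0% and 0.0281%, in Longan_low 0% and 0.00562%, and in Liriopis_medium 0% and 0.0112%. Liriopis_low and Aucklandiae_low had 0.00562% called higher and 0% lower, and Schisandrae_low and Zizyphi_low 0% each way. At an unadjusted p under 0.05 these 10 groups held 0 to 5 of the 9. Of all 17792 genes, 429 (Schisandrae_low) to 1857 (Schisandrae_medium) passed that p, and the 5 were in Schisandrae_medium. DESeq2 called 2 in Schisandrae_medium, beside 268 of all genes, and 0 in the others.

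1 library weighed on these numbers. Without Liriopis_high replicate 1, 0 of the 9 were called in Liriopis_high, 8 rose in Polygalae_low, 8 in Polygalae_high, 7 in Aucklandiae_medium, 3 in Longan_high and 4 in Schisandrae_medium, and 6 fell under wortmannin. Aucklandiae_low and Zizyphi_high then had 1 each, NQO1 in both. The share of all genes called in either direction moved as well, to 0.00553% in Liriopis_high, 13.9% in Polygalae_low, 54% in Polygalae_high, 22.8% in Aucklandiae_high and 22.7% under wortmannin. It was 7.02% in Longan_high, 4.66% in Schisandrae_medium, 2.32% in Zizyphi_high, 1.5% in Aucklandiae_medium and 0.0885% in Aucklandiae_low.

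**Figure D2:**
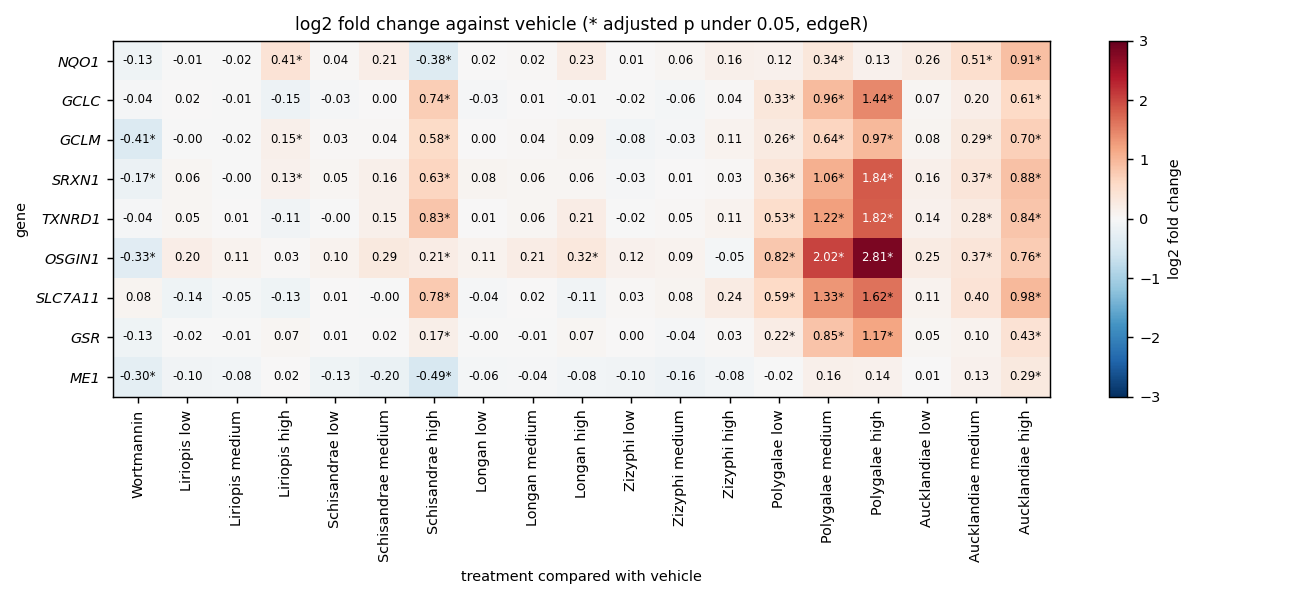
Log2 fold change against vehicle (colour and printed value) of the 9 genes (rows) in the 19 treated groups (columns); an asterisk marks an adjusted p under 0.05 in edgeR. Calls cluster in Schisandrae_high, the 3 Polygalae doses and the 2 upper Aucklandiae doses, and the largest value is OSGIN1 in Polygalae_high at 2.81.

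SLC7A11 (ENSG00000151012, GRCh38 chr4:138164097-138242349, minus strand) is the transport subunit of the cystine and glutamate exchanger that brings in the cystine used for glutathione. Vehicle libraries held 113, 130 and 139 CPM. Schisandrae_high libraries held 225, 216 and 216 CPM and Aucklandiae_high 235, 249 and 271 CPM. Polygalae_high libraries were the highest of all at 439, 367 and 370 CPM. No library of these 3 groups overlapped vehicle. They differed from vehicle by 0.78 (SE 0.104, adjusted p = 1.57e-08), 0.98 (SE 0.104, adjusted p = 4.85e-10) and 1.62 (SE 0.105, adjusted p = 9.77e-18) on the log2 scale. With Polygalae the rise was already called at 10 µg/mL, where libraries held 177, 213 and 188 CPM and the log2 fold change was 0.59 (adjusted p = 7.71e-05). Its binding partner SLC3A2 rose by 0.56 in that group, and by 0.50, 0.51 and 1.37 in Schisandrae_high, Aucklandiae_high and Polygalae_high on the log2 scale.

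GCLC (ENSG00000001084, chr6:53497341-53616970, minus strand) and GCLM (ENSG00000023909, chr1:93885205-93909456, minus strand) encode the catalytic and modifier subunits of glutamate-cysteine ligase, the rate-limiting enzyme of glutathione synthesis. GCLC held 31.7, 32.8 and 31.9 CPM in vehicle and 90.7, 83.3 and 86.5 CPM in Polygalae_high, a rise of 1.44 on the log2 scale (SE 0.0644, adjusted p = 1.56e-23). GCLM held 71.4, 74.4 and 75.9 CPM in vehicle and 146, 147 and 143 CPM in Polygalae_high, a 1.96-fold rise (log2 0.97, SE 0.0574, adjusted p = 3.55e-19). Both genes rose at every Polygalae dose, with no overlap between treated and vehicle libraries. GCLC reached 51.2, 55.4 and 54.8 CPM in Schisandrae_high (log2 0.74, adjusted p = 1.47e-13) and 48.9, 47.1 and 50.7 CPM in Aucklandiae_high (log2 0.61, adjusted p = 5.37e-10). For GCLM the order of these extracts was the other way round, with 109, 114 and 109 CPM in Schisandrae_high and 127, 116 and 119 CPM in Aucklandiae_high. The modifier subunit was also the member most lowered by wortmannin, to 58.8, 55.0 and 53.5 CPM (1.33-fold lower, log2 -0.41, SE 0.0578, adjusted p = 1.52e-06). GCLC under wortmannin had no call, at a log2 fold change of -0.04 with a 95% interval of -0.17 to 0.09.

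GSR (ENSG00000104687, chr8:30678061-30727999, minus strand), glutathione reductase, returns oxidised glutathione to its reduced form with NADPH. It held 64.0, 66.8 and 69.1 CPM in vehicle and rose to 158, 143 and 150 CPM in Polygalae_high (2.25-fold, log2 1.17, SE 0.0503, adjusted p = 3.17e-24). Aucklandiae_high libraries lay close together at 89.5, 90.8 and 89.8 CPM (log2 0.43, adjusted p = 4.70e-09). Schisandrae_high libraries, at 75.6, 76.8 and 72.5 CPM, were all above vehicle (log2 0.17, SE 0.0504, adjusted p = 0.00419). That last call was lost with no filter on low counts (adjusted p = 0.109).

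TXNRD1 (ENSG00000198431, chr12:104215779-104350305, plus strand), cytosolic thioredoxin reductase, keeps thioredoxin reduced with NADPH. Its vehicle libraries held 279, 281 and 281 CPM. They rose with Polygalae dose to 396, 420 and 394 CPM, then 648, 676 and 639 CPM, then 990, 961 and 1019 CPM, with log2 fold changes of 0.53, 1.22 and 1.82 (SE 0.0609 to 0.0625). The 3 doses did not overlap each other or vehicle. Schisandrae_high (503, 511 and 484 CPM) and Aucklandiae_high (489, 501 and 515 CPM) overlapped each other at log2 fold changes of 0.83 and 0.84. TXN, the thioredoxin that the enzyme reduces, had no call in any of these high-dose groups, with log2 fold changes of 0.13 in Schisandrae_high (adjusted p = 0.525), 0.36 in Polygalae_high (adjusted p = 0.0704) and 0.40 in Aucklandiae_high (adjusted p = 0.11). TXNIP, which binds and inhibits thioredoxin, went from 10.4, 9.86 and 10.0 CPM in vehicle to 358, 353 and 363 CPM in Schisandrae_high (log2 5.15, SE 0.100, adjusted p = 2.62e-37). In Polygalae_high TXNIP fell by 0.65 on the log2 scale (adjusted p = 1.05e-06).

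SRXN1 (ENSG00000271303, chr20:646615-653370, minus strand), sulfiredoxin, repairs over-oxidised peroxiredoxins. Vehicle libraries held 91.5, 85.7 and 88.1 CPM. Polygalae raised it at each dose, to 114, 112 and 114 CPM, to 184, 180 and 187 CPM, and to 303, 304 and 340 CPM. The log2 fold change at the high dose was 1.84 (SE 0.0469, adjusted p = 8.75e-33). Aucklandiae_high libraries (165, 161 and 162 CPM) and Schisandrae_high libraries (138, 135 and 139 CPM), of different library sets, did not overlap each other. Their log2 fold changes were 0.88 (adjusted p = 1.63e-19) and 0.63 (adjusted p = 4.97e-16). In Aucklandiae_medium, SRXN1 libraries at 114, 115 and 115 CPM put it 0.37 above vehicle on the log2 scale (SE 0.0460, adjusted p = 1.63e-06).

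NQO1 (ENSG00000181019, chr16:69706996-69726951, minus strand) reduces quinones with NADH or NADPH and is a widely used readout of NRF2 activity. Its vehicle libraries held 159, 155 and 159 CPM. With Aucklandiae they held 196, 184 and 186 CPM at the low dose, which was not called (adjusted p = 1), 224, 226 and 222 CPM at the medium dose and 298, 291 and 298 CPM at the high dose. Aucklandiae_high was the highest of the 20 groups and lay above Aucklandiae_medium, the next group by mean; of all other libraries only Liriopis_high replicate 1, at 296 CPM, fell in its range. Its log2 fold change was 0.91 (SE 0.0925, adjusted p = 1.84e-10). Polygalae gave 167, 170 and 178 CPM at the low dose, 195, 200 and 205 CPM at the medium dose and 167, 174 and 175 CPM at the high dose. Every Polygalae library was above every vehicle library, and the medium dose was called (log2 0.34, adjusted p = 0.0032). The high dose was not, at a log2 fold change of 0.13 with a 95% interval of -0.06 to 0.31. Schisandrae_high was the lowest of the 20 groups at 126, 119 and 119 CPM (log2 -0.38, SE 0.0928, adjusted p = 0.000592), although Schisandrae_medium libraries, at 182, 187 and 179 CPM, lay above vehicle.

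The spread of NQO1 in the fit rested on 1 library: Liriopis_high held 296, 161 and 173 CPM, a coefficient of variation of 35.5% beside a median of 2.37% over groups. Without replicate 1 of Liriopis_high, NQO1 was called in Polygalae_high (adjusted p = 0.00134), Polygalae_low (0.0121) and Aucklandiae_low (log2 0.26, 3.43e-05). It was also called in Schisandrae_medium (log2 0.21, 6.78e-05), Longan_high (log2 0.24, 1.44e-05), Zizyphi_high (log2 0.16, 0.00305) and wortmannin (log2 -0.13, 0.00393). Its Liriopis_high value fell to 0.09 and was not called (adjusted p = 0.671). Of the other 8 genes, the same library was the lowest of the 60 for GCLC at 25.1 CPM, TXNRD1 at 204 CPM and SLC7A11 at 91.7 CPM.

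ME1 (ENSG00000065833, chr6:83210389-83431071, minus strand), cytosolic malic enzyme, supplies NADPH by turning malate into pyruvate. It was the least abundant of the 9 genes and moved least, with 10.96, 12.8 and 12.2 CPM in vehicle. Aucklandiae_high libraries held 14.0, 14.1 and 15.9 CPM (log2 0.29, SE 0.0832, adjusted p = 0.0126), all above vehicle. That call was lost without Aucklandiae_high replicate 3 (adjusted p = 0.118), without vehicle replicate 1 (0.115) and with no filter on low counts (0.0635). Schisandrae_high libraries held 7.88, 9.39 and 8.47 CPM, all below vehicle (log2 -0.49, SE 0.0884, adjusted p = 8.67e-06). Polygalae_high libraries, at 13.0, 13.2 and 13.4 CPM, were above vehicle without a call (log2 0.14, 95% interval -0.03 to 0.31, adjusted p = 0.189). Scaling by library totals alone gave calls in that comparison for ME1 at 0.30 and NQO1 at 0.29. Under that scaling the median of all genes was 0.18, beside 0.02 with TMM.

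OSGIN1 (ENSG00000140961, chr16:83948282-83966332, plus strand) encodes a protein induced by oxidative stress that restrains growth. It had the widest range of the 9, from 12.9 CPM under wortmannin to 114 CPM in Polygalae_high by group mean. Vehicle libraries held 17.9, 15.2 and 15.6 CPM. Polygalae took it to 26.5, 29.1 and 30.3 CPM, to 65.7, 61.7 and 70.0 CPM, and to 107, 121 and 115 CPM. The high dose gave a 7.03-fold rise (log2 2.81, SE 0.0770, adjusted p = 1.46e-31) and the low dose a 1.76-fold rise (adjusted p = 9.08e-11). Aucklandiae_high libraries, at 27.7, 29.8 and 25.3 CPM, overlapped those of the lowest Polygalae dose (log2 0.76, adjusted p = 1.19e-10). In Schisandrae_high, 18.7, 17.1 and 20.7 CPM overlapped vehicle, and the call (log2 0.21, adjusted p = 0.0211) was lost without Schisandrae_high replicate 3 (0.194), vehicle replicate 2 (0.122) or vehicle replicate 3 (0.0841). OSGIN1 was the 1 gene called in Longan_high (20.9, 19.8 and 20.0 CPM, log2 0.32, adjusted p = 0.0299). That call was lost without any of 5 libraries in turn: each of the 3 Longan_high libraries and vehicle replicates 2 and 3.

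Doses of a herb share a library set, so the dose comparisons do not hold the set difference. Polygalae_high against Polygalae_low raised 7 of the 9 genes (17.9% of all genes called higher and 18.3% lower). Both steps raised the same 7, beside 5.23% of all genes called higher and 5.7% lower from low to medium, and 7.18% and 10.4% from medium to high. OSGIN1 rose by 1.20 and then 0.80 on the log2 scale, SRXN1 by 0.70 and then 0.78. SLC7A11 rose by 0.74 and then by 0.28, and the call of the second step (adjusted p = 0.0456) was lost without any of 5 of the 6 libraries in turn (adjusted p = 0.05 to 0.286). The exception was Polygalae_medium replicate 2. NQO1 did not differ between the high and low dose (log2 0.01, 95% interval -0.18 to 0.19). From medium to high its 3 libraries all moved down (log2 -0.22, adjusted p = 0.103, or 1.33e-06 without Liriopis_high replicate 1).

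Aucklandiae_high against Aucklandiae_low raised 9 of 9 (5.32% of all genes called higher and 5.3% lower), from 0.28 for ME1 (adjusted p = 0.0246) to 0.87 for SLC7A11 on the log2 scale. The ME1 call was lost without Aucklandiae_high replicate 3, Aucklandiae_low replicate 2 or Aucklandiae_low replicate 3 (adjusted p = 0.0608 to 0.184). The step from medium to high raised 8 (2.75% and 2.74%). From low to medium edgeR called 0 of 9 (0.0112% of all genes higher and 0.00562% lower). At an unadjusted p under 0.05 there were 6, beside 641 of all 17792 genes, and DESeq2 called 1, beside 12 of all genes. Without Liriopis_high replicate 1 this step raised 2, NQO1 and SRXN1, beside 0.127% of all genes called in either direction. Schisandrae_high against Schisandrae_low raised 6 and lowered 2 (25% and 24.8% of all genes), and the step from medium to high gave the same numbers (23% each way). From low to medium 0 of 9 were called by edgeR (0.124% of all genes higher and 0.208% lower) and 0 by DESeq2. At an unadjusted p under 0.05 there were 3, beside 1284 of all 17792 genes. Leaving out Liriopis_high replicate 1 gave 2 higher in this step, NQO1 and TXNRD1, beside 1.69% of all genes called in either direction. High against low raised 1 gene with Liriopis (11.8% of all genes higher and 4.27% lower), NQO1, which was not called without replicate 1 (adjusted p = 0.771). With Longan and Zizyphi edgeR and DESeq2 called 0 of 9 between high and low dose. At an unadjusted p under 0.05 there were 3 each, beside 1356 (Longan) and 1373 (Zizyphi) of all 17792 genes. For all genes, edgeR called 0.124% higher and 0.124% lower with Longan, and 0.292% higher and 0.382% lower with Zizyphi. Those herbs had 2 and 3 calls when Liriopis_high replicate 1 was left out, beside 1.82% and 2.87% of all genes called in either direction.

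**Figure D3:**
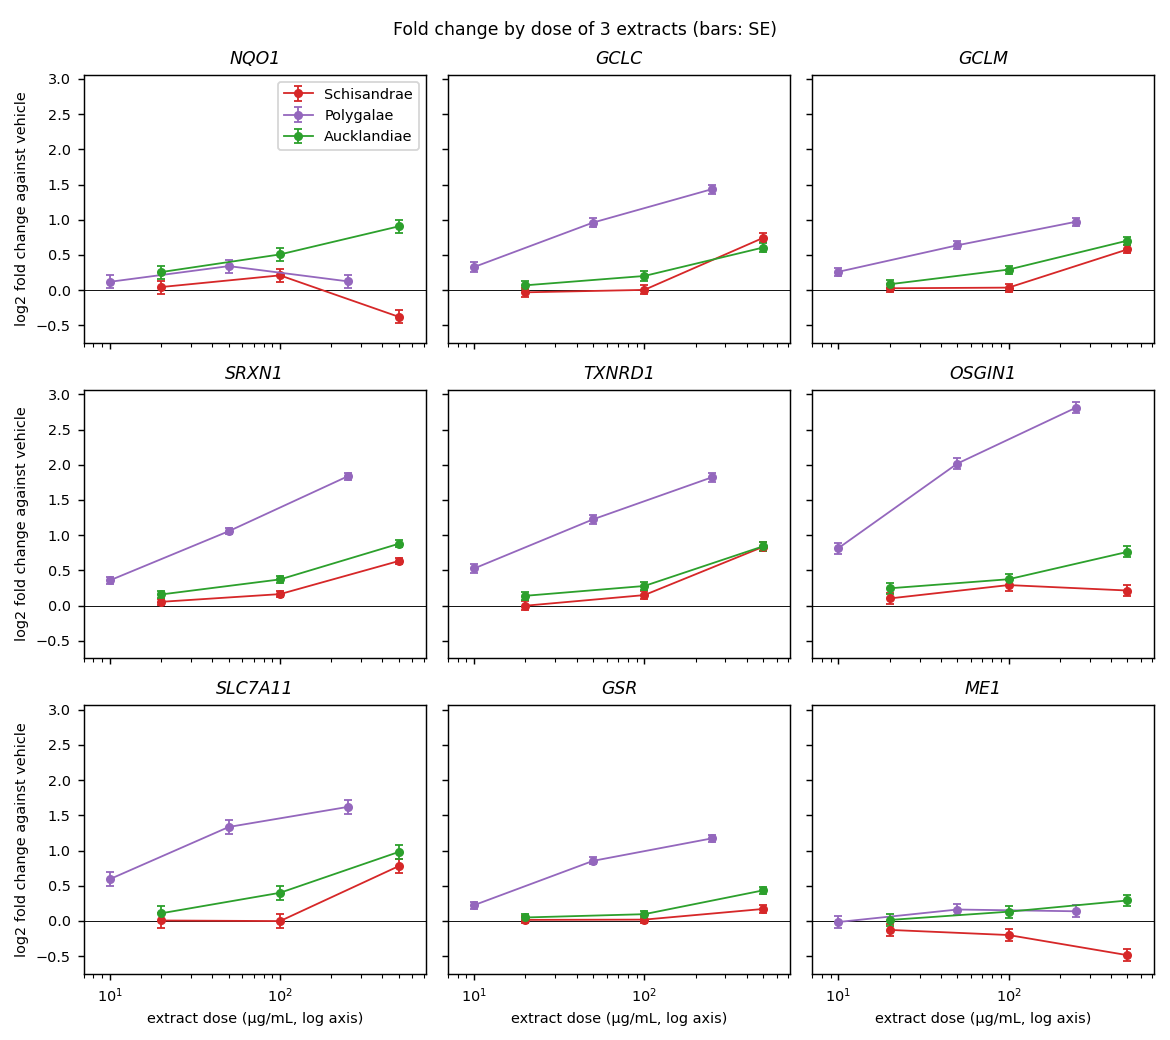
Log2 fold change against vehicle (vertical axis) by extract dose in µg/mL (horizontal log axis) for 3 extracts, with SE bars from the fit. Lines for 7 genes climb with Polygalae dose, whereas NQO1 returns from 0.34 at 50 µg/mL to 0.13 at 250 µg/mL and the Schisandrae line of NQO1 falls to -0.38 at 500 µg/mL.

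Polygalae_high and Aucklandiae_high share a library set but differ in dose, 250 against 500 µg/mL. Between these groups 7 of the 9 genes were higher with Polygalae (23% of all genes called higher) and 1, NQO1, was lower (22.5% called lower). The widest difference was OSGIN1, 4.14-fold higher (log2 2.05, SE 0.0736, adjusted p = 4.52e-27). TXNRD1 and SRXN1 were 1.97- and 1.94-fold higher. NQO1 was 1.72-fold lower with Polygalae (log2 -0.78, SE 0.0923, adjusted p = 9.27e-10), and the libraries of these groups did not overlap. ME1 had no call (log2 -0.15, 95% interval -0.32 to 0.01).

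Schisandrae and Aucklandiae were given at the same doses, and their changes from low to high dose were compared by an interaction term, a test chosen after the values were seen. NQO1 went down by 0.42 with Schisandrae and up by 0.65 with Aucklandiae, a difference of -1.07 (SE 0.131, adjusted p = 6.24e-09). ME1 followed the same division, down by 0.36 and up by 0.28, a difference of -0.64 (SE 0.123, adjusted p = 5.43e-05). GSR rose less with Schisandrae (-0.23, adjusted p = 0.0097) and GCLC rose more (0.24, adjusted p = 0.0413). OSGIN1 rose with Aucklandiae and was at 0.11 without a call with Schisandrae (adjusted p = 0.244), a difference of -0.40 (adjusted p = 0.00325). The other 4 were not called: GCLM -0.07 (adjusted p = 0.574), SLC7A11 -0.10 (0.656), SRXN1 -0.14 (0.0936) and TXNRD1 0.13 (0.252). Without Liriopis_high replicate 1, SRXN1 (0.0394) and TXNRD1 (0.0253) were called too, 7 of the 9 in all. Over all genes, 32.6% were called in this interaction, and 42.7% without that library.

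Among 10 regulators of the pathway (such as NRF2, KEAP1, BACH1 and small MAF proteins), 7 rose and 1 fell in Polygalae_high. SQSTM1, which draws KEAP1 into autophagy, rose from 548, 520 and 521 CPM to 2145, 2199 and 2242 CPM (log2 2.05, SE 0.0737, adjusted p = 4.51e-27). NFE2L2 itself rose by 0.61 on the log2 scale, KEAP1 by 0.49, the repressor BACH1 by 0.53 and the small MAF genes MAFF, MAFG and MAFK by 1.34, 1.36 and 0.77. NFE2L1 fell by 0.33. In Aucklandiae_high 3 of the 10 rose and 0 fell (0 also at an unadjusted p under 0.05): MAFF by 0.76, MAFG by 0.31 and MAFK by 0.26, while NFE2L2 was at -0.0034 (95% interval -0.12 to 0.11, adjusted p = 0.985). Schisandrae_high raised 6 and lowered 2, KEAP1 by 0.29 and SQSTM1 by 0.66. Of all genes, 23.1% were called higher and 22.9% lower in Polygalae_high, 6.54% and 6.69% in Aucklandiae_high, and 25.3% and 25.6% in Schisandrae_high. The lists were chosen with earlier results of these data known, so their direction is no independent evidence.

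Of 24 other NRF2 targets, 11 rose and 2 fell in Polygalae_high, 10 rose and 0 fell in Aucklandiae_high (0 also unadjusted), and 5 rose and 5 fell in Schisandrae_high. The shares of all genes called higher and lower were 23.1% and 22.9%, 6.54% and 6.69%, and 25.3% and 25.6% in the same order. HMOX1, haem oxygenase, went from 58.1, 55.5 and 56.0 CPM in vehicle to 999, 1021 and 978 CPM in Polygalae_high (log2 4.14, SE 0.106, adjusted p = 8.75e-33). It reached 154, 151 and 143 CPM in Aucklandiae_high (log2 1.40) and 117, 111 and 109 CPM in Schisandrae_high (log2 0.99). FTH1, the ferritin heavy chain, rose by 1.54 in Polygalae_high. AKR1C1, an aldo-keto reductase, rose by 2.03 in Schisandrae_high, 1.29 in Aucklandiae_high and 1.12 in Polygalae_high, and EPHX1, an epoxide hydrolase, fell by 0.93 in Schisandrae_high and by 0.52 in Polygalae_high. Without Liriopis_high replicate 1 the numbers of these 24 higher and lower were 14 and 4, 18 and 0, and 8 and 9 in the order Polygalae, Aucklandiae and Schisandrae. The share of all genes called in either direction was then 54%, 22.8% and 58.6%.

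A list of genes tied to the supply of NADPH, which GSR, TXNRD1 and NQO1 consume, separated Polygalae from Aucklandiae. Some listed genes, such as TKT and TALDO1, encode enzymes that do not make NADPH themselves. Of 17 tested, 0 rose and 11 fell in Polygalae_high, with 0 higher also at an unadjusted p under 0.05, and the median log2 fold change was -0.55. In Aucklandiae_high 7 rose and 2 fell, with a median of 0.13. Of all genes, 23.1% were called higher and 22.9% lower in Polygalae_high, and 6.54% and 6.69% in Aucklandiae_high. TKT, transketolase, fell by 0.55 on the log2 scale with Polygalae (adjusted p = 7.53e-13) and rose by 0.34 with Aucklandiae (adjusted p = 1.06e-06). PGD was at 0.03 (adjusted p = 0.593) with Polygalae and rose by 0.44 with Aucklandiae, and TALDO1 was at 0.10 (adjusted p = 0.408) and rose by 0.27. Tested directly between these 2 groups, 13 of the 17 were lower with Polygalae, beside 22.5% of all genes. At high against low dose, within 1 library set, 10 fell with Polygalae, while 5 rose and 4 fell with Aucklandiae. Of all genes, 18.3% were called lower with Polygalae in that comparison, and 5.32% higher and 5.3% lower with Aucklandiae. Against vehicle the numbers were 0 and 11 with Polygalae and 9 and 4 with Aucklandiae without Liriopis_high replicate 1. In Schisandrae_high 8 rose and 4 fell, beside 25.3% and 25.6% of all genes. Among them IDH1, an isocitrate dehydrogenase, fell by 0.69 and MTHFD2, a mitochondrial folate enzyme, rose by 1.08.

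Counts in other lists are read beside the shares of all genes called higher and lower, 23.1% and 22.9% in Polygalae_high, 6.54% and 6.69% in Aucklandiae_high, and 25.3% and 25.6% in Schisandrae_high. Among 31 tested glutathione genes other than the 9, 6 rose and 9 fell in Polygalae_high, 3 rose and 4 fell in Aucklandiae_high, and 6 rose and 10 fell in Schisandrae_high. These were, without Liriopis_high replicate 1, 8 and 11, 7 and 5, and 8 and 14, and in Aucklandiae_high the larger number was then on the higher side. Examples are GSTO1, a glutathione transferase (log2 0.93 in Polygalae_high), GPX1, a glutathione peroxidase (-0.84 in Aucklandiae_high) and GSTM2, another transferase (-0.77 in Schisandrae_high). Of 21 genes of the thioredoxin system, 1 rose and 5 fell, 1 rose and 2 fell, and 3 rose and 9 fell in the same order; without that library the numbers were 2 and 10, 4 and 6, and 3 and 11. PRDX6, a peroxiredoxin, fell by 0.57 in Polygalae_high and NXN, nucleoredoxin, fell by 1.08 in Schisandrae_high. Of 5 superoxide and catalase genes, Polygalae_high raised 1, SOD2 (log2 0.66), and lowered 2, among them CAT (catalase, log2 -0.92); Schisandrae_high raised both SOD2 and CAT, by 0.22 and 0.21. Those numbers were 1 and 3 in Polygalae_high and 3 and 1 in Schisandrae_high without that library.

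ATF4, a factor of the amino acid and unfolded protein responses, is also known to drive SLC7A11. Of 24 ATF4 targets, 20 rose and 1 fell in Schisandrae_high, with a median log2 fold change of 0.91, while 10 rose and 9 fell in Polygalae_high and 5 rose and 3 fell in Aucklandiae_high. They were 22 and 1, 11 and 10, and 10 and 4 without Liriopis_high replicate 1. TRIB3, ASNS and CHAC1 (a glutathione-degrading enzyme) rose by 1.85, 1.63 and 1.63 in Schisandrae_high. In Polygalae_high ATF4 rose by 1.00 while ASNS fell by 0.93 and CHAC1 by 0.49, and TRIB3 was at 0.18 (adjusted p = 0.085). NQO1 is also a known target of AHR. CYP1A1, the most used readout of AHR, stayed between 0.881 and 1.49 CPM in vehicle and these 3 groups and had no call. Of 9 AHR genes, 3 rose and 1 fell in Schisandrae_high, 3 rose and 1 fell in Polygalae_high and 2 rose and 0 fell in Aucklandiae_high (0 also unadjusted). Leaving out Liriopis_high replicate 1 gave 3 and 4, 3 and 1, and 2 and 1. TIPARP rose in each of the 3, by 0.97, 0.50 and 0.40, and CYP1B1 fell in Schisandrae_high by 0.56.

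**Figure D4:**
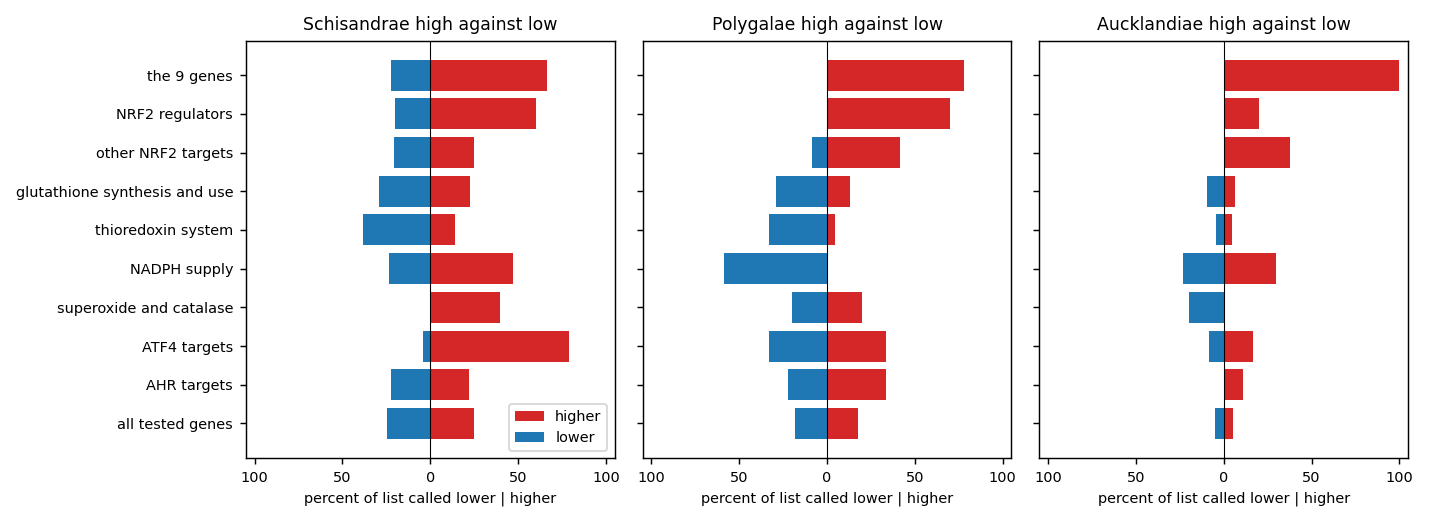
Percent of each gene list called higher (right) and lower (left) at high against low dose within 3 extracts, with the 9 genes on top and all tested genes at the bottom. Called NADPH supply genes, 10 of 17, lie wholly on the lower side with Polygalae, and ATF4 targets, with 19 higher and 1 lower, lie mostly on the higher side with Schisandrae.

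Marker levels differed between groups as well. Over 8 mesenchymal markers the sum was 3438 to 3756 CPM in Polygalae_high, 12316 to 13055 in Schisandrae_high and 13028 to 13598 in vehicle. Over 8 glioma and neural stem markers it was 4329 to 4710, 7229 to 7570 and 8626 to 8805 CPM in that order. Neuron markers summed to 76.1 to 84.1 CPM in Polygalae_high, 79.3 to 86.8 in Schisandrae_high and 161 to 165 in vehicle. Epithelial markers summed to 41.5 to 43.8, 62.4 to 66.4 and 133 to 149 CPM in the same order. In vehicle TUBB3 held 104 CPM of the neuron sum, with RBFOX3, STMN2, GAP43 and ELAVL3 at 0.111 CPM or less. KRT18 held 123 CPM of the epithelial sum, with EPCAM and CDH1 at 0.0621 CPM or less. SW1783 is a cell line, and these sums rest on few genes. They do not show that neurons or epithelial cells were present. In Aucklandiae_high the mesenchymal sum was 9307 to 9890 CPM. In Polygalae_high the share of mitochondrial transcripts was 12.4% to 13.4%, against 10.3% to 10.6% in vehicle. The part of these shifts in the changes of the 9 genes was not tested. In bulk libraries fewer cells that express a gene and less of its RNA per cell cannot be told apart. The defining leukocyte gene TYROBP was at 0 in all 60 libraries.

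Across the 20 group means of log2 CPM, 7 of the 9 genes followed each other closely, with Pearson r from 0.828 (GCLM and OSGIN1) to 0.992 (GCLC and TXNRD1). NQO1 stood outside, at r of 0.148 to 0.387 with these 7, and was closest to ME1 (0.828). Nearest genes were sought among other tested genes that had a gene symbol and were not of low mean level. Clone, antisense, long intergenic and pseudogene symbols were also left out. Within the genes kept, the nearest to NQO1 was PIR (0.891), the nearest to ME1 was C2orf69 (0.921) and the nearest to OSGIN1 was LSG1 (0.981). THUMPD3 was the nearest to GCLC (0.980), TXNRD1 (0.985) and SLC7A11 (0.968), UNKL to GSR (0.977), ST3GAL4 to SRXN1 (0.963) and VIPAS39 to GCLM (0.957). HMOX1 was the second nearest to GSR (0.972). These values describe 20 groups that share the same few strong doses and library sets.

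Under wortmannin the called genes were all lower. GCLM, SRXN1, OSGIN1 and ME1 fell, by 0.41, 0.17, 0.33 and 0.30 on the log2 scale. OSGIN1 held 13.4, 11.9 and 13.4 CPM and ME1 9.98, 9.20 and 10.1 CPM. HMOX1 fell as well, by 0.84 (adjusted p = 2.09e-08), and TXNIP rose by 0.57. The calls of SRXN1 and ME1 were lost with no filter on low counts and without wortmannin replicate 2. That of ME1 was lost without vehicle replicate 2 or vehicle replicate 3 too, and that of SRXN1 without vehicle replicate 1.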

How the data were processed

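The authors deposited RSEM expected counts per Ensembl gene for 60 libraries of a directional mRNA kit (MGI, 100 bp paired reads, per the labels' protocols). Per the submitters' processing notes, the tools were RSEM 1.3.3, STAR 2.7.3a, FastQC 0.11.9 and Trim Galore 0.6.5, with the GRCh38 build. The sources used here give neither annotation release nor strand setting. The labels give 0.1% DMSO for vehicle, the series text 2%; for treated cells DMSO is not labelled.

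Expected counts were rounded (11.02% were not whole) and fitted in edgeR 4.0.16 (R 4.3.3) with 1 mean per group over all 60 libraries, TMM scaling, a minimum count of 10 in the expression filter (17792 genes left) and 40 residual degrees of freedom. Each of 32 comparisons was tested by the quasi-likelihood F test with Benjamini-Hochberg adjustment over all tested genes at 0.05. The SE is the log2 fold change divided by the square root of F. CPM use TMM-scaled totals. Coordinates and exon lengths are from GENCODE 29. Alternatives were DESeq2 1.42.0, other scalings, no filter, pairwise fits, a replicate block and leaving out libraries. The test was tried on simulated data.

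The 9 genes and the lists (NRF2 regulators, other NRF2 targets, glutathione, thioredoxin, NADPH supply, superoxide and catalase, ATF4 and AHR genes, cell type markers) were chosen with earlier results of these data known. Lists share 7 genes among them. All 9 genes, a set of pathway genes (1 of them is not reported here), up to 2 further called genes of smallest p per list and comparison, and the nearest genes by correlation were named; AKR1C1 and EPHX1 in Polygalae_high were added after their values were seen.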

Additional observations from a re-analysis of the deposited data

Results flagged for a closer look

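5 of the 9 genes changed differently from low to high dose with Schisandrae than with Aucklandiae, given at the same doses, by edgeR's test of the difference itself. The log2 change with Schisandrae minus that with Aucklandiae was -1.07 for NQO1 and -0.64 for ME1, which went down with the one and up with the other. It was -0.23 for GSR and 0.24 for GCLC, which went up with both, and -0.4 for OSGIN1, which went up with Aucklandiae and had no call with Schisandrae. Over all genes 32.6% were called in this test. Without Liriopis_high replicate 1, 7 of the 9 genes were called, beside 42.7% of all genes. These extracts belong to different library sets, and each change was measured within its own set. The comparison was chosen after the values were seen, and whether a set difference bears on it was not tested.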

How the results depend on the processing

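No called fold change changed direction under any alternative run. Some that were not called did, for instance in Liriopis_high when its replicate 1 was left out: TXNRD1 went from -0.11 to 0.04, SLC7A11 went from -0.13 to 0.02 and GSR went from 0.07 to -0.02.
The number of the 9 genes called moved as follows, with causes not tested. In parentheses is the number of all genes called in the same run. With no filter on low counts 2 of the 9 were called for wortmannin (1180), 1 for Liriopis_high (4907) and 0 for Longan_high (48). With library totals there was 1 for Liriopis_high (5035) and 2 for Schisandrae_medium (169), and with RLE size factors 1 for Schisandrae_medium (182). DESeq2 gave 2 for Longan_high (364), 2 for Schisandrae_medium (268), 2 for Liriopis high against low (3596) and 1 for Aucklandiae medium against low (12). Fits of only the groups compared gave 0 for Liriopis_high (0) and 0 for Liriopis high against low (0). They gave 3 for Longan_high (479) and 3 for Schisandrae_medium (433).

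Leaving out 1 library at a time, counts of the 9 ran from 2 to 6 for wortmannin and 0 to 6 for Liriopis_high. They ran from 0 to 4 for Schisandrae_medium, 0 to 3 for Longan_high and 3 to 7 for Aucklandiae_medium. For Zizyphi_high and Aucklandiae_low they ran from 0 to 1. In the runs with the highest counts, all genes called numbered 4108 for wortmannin, 8767 for Liriopis_high, 842 for Schisandrae_medium and 1269 for Longan_high. For Aucklandiae_medium, Zizyphi_high and Aucklandiae_low they numbered 271, 420 and 16. For high against low, counts of the 9 ran from 0 to 5 for Liriopis, 0 to 2 for Longan and 0 to 3 for Zizyphi. For medium against low they ran from 0 to 2 for Schisandrae and 0 to 2 for Aucklandiae. At these highest counts, all genes called numbered 7371 for Liriopis, 329 for Longan, 518 for Zizyphi, 306 for Schisandrae and 23 for Aucklandiae. Of the 9 genes, 8 to 9 were called in Schisandrae_high, 7 to 8 in Polygalae_low, 8 in Polygalae_medium, 7 to 8 in Polygalae_high and 8 to 9 in Aucklandiae_high. Without Liriopis_high replicate 1, all genes called in these groups numbered 10601, 2512, 7308, 9760 and 4126 in that order.

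Replicate numbers did not pair the libraries: in 0 of 32 comparisons did all same-numbered libraries deviate together (r from -0.153 to 0.22). With the replicate block the number of the 9 called was the same in every comparison, for instance 7 in Polygalae_high, 9 in Aucklandiae_high and 9 in Schisandrae_high. All genes called numbered 8237, 2373 and 9115 with the block in these groups.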
